A study of Saccharomyces cerevisiae with 6 samples.

Results

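The genes for peroxisome biogenesis and fatty acid oxidation were compared between a met4 mutant of Saccharomyces cerevisiae, a deletion mutant per the series title, and the wild type after each had spent 1 hour in 0.2 mM arsenite, As(III). Members were the genes whose platform symbol was PEX followed by a number, together with 19 named genes for fatty acid activation, transport, oxidation and its transcriptional control. The rule found 46 of the 5539 genes measured, 27 of them PEX genes, each printed as a pair of spots (92 in all).

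All 6 samples were direct hybridisations of total RNA from the mutant, in the Cy3 channel, against RNA from the wild type, in the Cy5 channel. They form 1 group of 6 arrays with no dye swap. A dye effect particular to a gene would recur on every array and cannot be told apart from a difference between the strains. Both strains had been exposed to arsenite and no unexposed cells were among the samples, so a difference that existed before the exposure cannot be told apart from one that arose in it. The labels do not give the strain background, the number of mutant clones, the extent of the deletion or whether the arrays came from separate cultures. The p-values therefore rest on the scatter among these arrays only, part of which may be technical.

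Peroxisomes are the only site of fatty acid beta-oxidation in yeast. Their proteins are made in the cytosol and imported by peroxins, the products of the PEX genes, which also build the membrane and set the number and size of the organelle. On oleate the transcription factors Oaf1 and Pip2 bind as a pair to oleate response elements and, with Adr1, raise the enzymes of the oxidation spiral, whereas glucose represses them. Acetyl-CoA made in the peroxisome reaches the mitochondrion through the carnitine shuttle or the glyoxylate cycle. Met4 itself is the activator of the sulfur amino acid genes.

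A gene's value on an array is the mean log2 ratio of its spots, less the median of all spots on that array. Errors are SDs over n = 6 arrays, and adjusted p-values are from limma, with Benjamini-Hochberg adjustment over all 5539 genes. Base 2 is assumed for the logarithm, and neither the base nor the numerator of the ratio is stated in the labels or the file. Mutant over wild type is called likely from the order in the sample titles and from MET4, and "higher" and "lower" carry that proviso. With the mutant in the Cy3 channel, a ratio of Cy5 over Cy3 would be wild type over mutant, and every direction would be reversed. MET4 (YNL103W) stood at -0.82, -0.94, -0.33, -0.58, -0.55 and -0.32 on arrays 1 to 6, below the array median on every array (mean -0.59 ± 0.25; limma, adjusted p = 0.0112). Before centring MET4 was above 0 on array 3, at 0.59. On arrays 3 and 6, 24.0% and 19.7% of genes lay lower than MET4, so the direction remains an assumption. Arrays correlated across all genes with r from 0.0817 to 0.759 in 15 pairs, and array 2 stood apart most, with a mean r of 0.291 to the others. Over the 46 members the same pairs gave r from -0.38 (arrays 2 and 4) to 0.75 (arrays 3 and 5), which describes arrays that share genes and platform and is no test.

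The means of the peroxisome and fatty acid oxidation genes lay on both sides of 0, and a shift of the group was not tested. Of the 46, 6 were higher in the mutant (FAA1, PEX14, TES1, OAF1, YAT1 and PEX29), 0 were lower and 40 did not pass the test. The share called, 13.0%, lay near the background of 15.1% over all genes (9.41% higher and 5.69% lower), so the count of calls is not a result about the members. By unadjusted limma p under 0.05, 9 of the 46 were higher and 2 lower, against 962 and 674 of all 5539 genes. The median of the member means was 0.05, against 0.0053 for all genes, with 24 members above 0 and 22 below. On the assumed log2 scale 0 of 46 members reached 2-fold, against 173 of all genes (3.12%). With natural logarithms, a reading added after the data were seen, 2 members (FAA1 and PEX14) and 460 of all genes would reach it. The member means ran from -0.68 for PEX2 to 0.73 for FAA1, which is 1.66-fold if the base is 2, and the median SD between arrays was 0.35 for members and 0.35 for all genes.

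**Figure D1:**
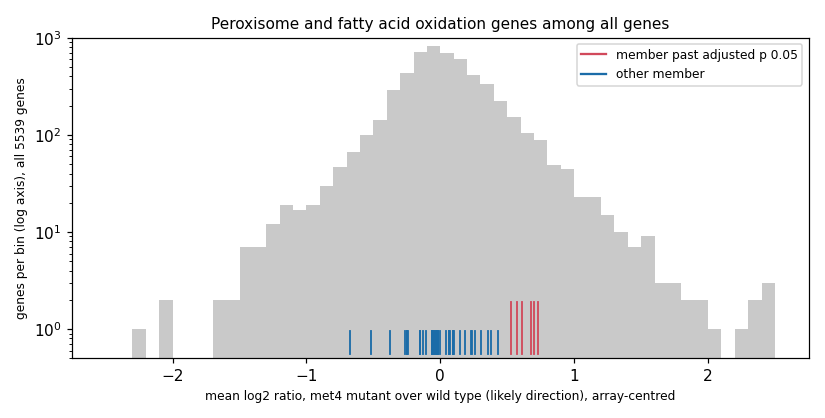
Histogram of the mean log2 ratio of all 5539 genes (grey, log count axis), with a tick at the base for each of the 46 members. The 6 members past the adjusted p of 0.05 (red, taller) lie between 0.53 and 0.73, and the other 40 (blue) between -0.68 and 0.43.

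All 6 calls depended on centring. In the values as deposited the arrays carry offsets of their own (medians from -0.95 to 0.92), and 0 members passed there (limma, smallest adjusted p = 0.101; 6 members at an unadjusted p under 0.05), although 36 of 46 had a mean above 0. Leaving out array 3, 4, 5 or 6 left 2, 3, 3 and 2 higher members. The calls of FAA1 and PEX14 held with each array left out in turn, and the other 4 were lost without at least 2 of the arrays. An exact sign-flip permutation over the 6 arrays gave unadjusted p = 0.0312, its smallest possible value, for FAA1, PEX14 and PEX29. The same permutation gave p = 0.0625 for OAF1 and TES1 and p = 0.125 for YAT1.

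Among the transcription factors, OAF1 was higher, PIP2 lay above 0 without passing and ADR1 lay below 0 without passing. OAF1 (YAL051W), which encodes the oleate-sensing partner of the pair, stood at 0.54, -0.22, 0.66, 0.53, 0.85 and 1.28 on arrays 1 to 6 (0.61 ± 0.49; limma, adjusted p = 0.0329). It was above 0 on 5 of 6 arrays, highest on array 6 and below 0 on array 2. The call held only when array 2 was the one left out, and without any of the other 5 arrays the adjusted p was 0.0626 to 0.115.

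PIP2 (YOR363C), whose product pairs with Oaf1 and is itself oleate-inducible, stood at 0.34, -0.08, 0.75, 0.38, 0.37 and 0.40 on arrays 1 to 6 (0.36 ± 0.26; limma, adjusted p = 0.0914). It too was below 0 on array 2 alone, and without that array it passed (0.45; limma, adjusted p = 0.0348). With any other single array left out PIP2 did not pass (limma, adjusted p 0.137 to 0.269). ADR1 (YDR216W), the activator of glucose-repressed genes for ethanol, glycerol and fatty acid use, stood at -0.38, 0.50, -1.14, -0.29, -0.68 and -0.27 (-0.38 ± 0.54; limma, adjusted p = 0.188). Array 2 was here the only one above 0, and without it ADR1 passed as lower (-0.55; limma, adjusted p = 0.0331). With any other single array left out ADR1 did not pass (limma, adjusted p 0.245 to 0.496).

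The 3 enzymes of the beta-oxidation spiral, which the Oaf1-Pip2 pair is known to control on oleate, did not pass, with means near 0. POX1 (YGL205W), the acyl-CoA oxidase of the first step, stood at 0.12, -0.03, -0.02, -1.21, 0.56 and 0.22 on arrays 1 to 6 (-0.06 ± 0.60; limma, adjusted p = 0.876, 95% confidence interval -0.48 to 0.36). It was within 0.56 of the array median except on array 4. FOX2 (YKR009C), the bifunctional hydratase and dehydrogenase of the middle steps, stood at 0.02, -0.55, 0.12, 0.03, 0.19 and -0.05 (-0.04 ± 0.26, interval -0.33 to 0.25). POT1 (YIL160C), the thiolase that releases acetyl-CoA, stood at 0.13, 0.04, -0.23, -0.47, -0.51 and -0.39 (-0.24 ± 0.27, interval -0.53 to 0.05; limma, adjusted p = 0.264). POT1 was above 0 on arrays 1 and 2 and below it on the other 4. The intervals reached down to -0.53 for POT1 and up to 0.36 for POX1, and an adjusted p that misses the threshold does not show that these transcripts were equal in mutant and wild type. No scanner intensities were used, so whether the spots of these 3 genes were dim could not be judged.

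**Figure D2:**
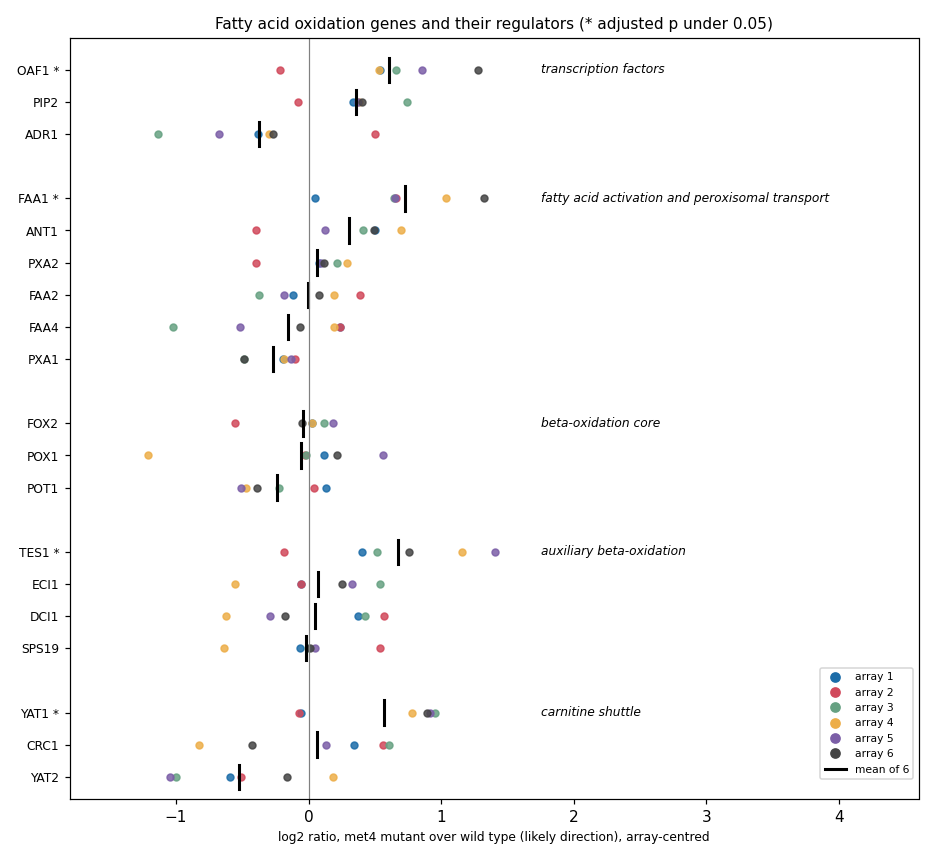
Log2 ratio (horizontal axis) of the 19 members other than PEX genes on each of the 6 arrays (coloured points) with the mean (black bar), grouped by role and sorted by mean. OAF1, FAA1, TES1 and YAT1, marked with a star, were past the adjusted p of 0.05, while POX1, FOX2 and POT1 had means between -0.24 and -0.04.

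Of the 4 auxiliary enzymes, which handle unsaturated chains and free the acyl groups, 1 was higher and 3 had means within 0.08 of 0. TES1 (YJR019C), the peroxisomal acyl-CoA thioesterase, stood at 0.40, -0.19, 0.52, 1.16, 1.41 and 0.76 on arrays 1 to 6 (0.68 ± 0.57; limma, adjusted p = 0.0302). It was above 0 on 5 arrays and highest on arrays 4 and 5. Its call was lost without array 3, 4, 5 or 6 (adjusted p 0.0596 to 0.0986). It was also lost when the centring followed runs of consecutive spots, where its mean fell to 0.41 (adjusted p = 0.0968).

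ECI1 (YLR284C), the isomerase for odd-position double bonds, stood at -0.06, -0.06, 0.54, -0.55, 0.33 and 0.25 (0.07 ± 0.38), 3 arrays on each side of 0. DCI1, its paralog, averaged 0.05 ± 0.48 and SPS19, the dienoyl-CoA reductase, -0.02 ± 0.38. ECI1, DCI1 and SPS19 each had their lowest value on array 4, at -0.55, -0.62 and -0.64, as did POX1 at -1.21, while TES1 was at 1.16 there. This was not particular to these enzymes: CRC1, PEX4, PEX10 and PEX21 were also lowest on array 4, at -0.82, -0.74, -0.68 and -0.64.

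Activation and import of fatty acids gave 1 higher gene among 6. FAA1 (YOR317W), the main long-chain acyl-CoA synthetase for imported fatty acids, stood at 0.05, 0.66, 0.65, 1.04, 0.65 and 1.32 on arrays 1 to 6 (0.73 ± 0.43; limma, adjusted p = 0.0106). It was above 0 on 6 of 6 arrays, lowest on array 1, and its mean was the highest of all 46 members. Its call held with each array left out in turn (adjusted p up to 0.0414).

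FAA4, the paralog that shares this task, averaged -0.15 ± 0.52 and ran from -1.02 on array 3 to 0.24, and FAA2, the peroxisomal synthetase for medium chains, averaged -0.0032 ± 0.28. ANT1 (YPR128C), which brings ATP into the peroxisome for that synthetase, stood at 0.50, -0.39, 0.41, 0.70, 0.12 and 0.49 (0.31 ± 0.39; limma, adjusted p = 0.205). Without array 2, the only array below 0, ANT1 passed as higher (0.45; limma, adjusted p = 0.0401). With any other single array left out ANT1 did not pass (limma, adjusted p 0.251 to 0.402). The half-transporters PXA1 and PXA2, which together carry long-chain acyl-CoA into the peroxisome, averaged -0.26 ± 0.17 and 0.07 ± 0.24, and neither passed. PXA1 (YPL147W) was nonetheless below 0 on 6 of 6 arrays, between -0.49 and -0.10 (limma, adjusted p = 0.173).

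The carnitine genes lay on both sides of 0. YAT1 (YAR035W), the carnitine acetyltransferase of the outer mitochondrial membrane, stood at -0.05, -0.07, 0.95, 0.78, 0.92 and 0.89 on arrays 1 to 6 (0.57 ± 0.49; limma, adjusted p = 0.0423). Its values fell into a pair just below 0 (arrays 1 and 2) and 4 between 0.78 and 0.95. The call was lost without array 3, 4, 5 or 6 (adjusted p 0.09996 to 0.133), with centring by runs of consecutive spots (adjusted p = 0.123), with arrays scaled to the same spread (adjusted p = 0.0505) and with array weights (adjusted p = 0.0653).

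YAT2 (YER024W), the related cytosolic enzyme, stood at -0.59, -0.51, -0.996, 0.18, -1.04 and -0.17 (-0.52 ± 0.47; limma, adjusted p = 0.0554). It was below 0 on 5 of 6 arrays and just missed the threshold. It passed as lower with scaled arrays, quantile normalization, array weights or without array 4 (adjusted p 0.0146 to 0.0466). CRC1, the mitochondrial carnitine carrier, averaged 0.07 ± 0.57 and ran from -0.82 on array 4 to 0.61.

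Among the import genes, PEX14 was higher and the other 8 receptor and docking genes did not pass. PEX14 (YGL153W), the central docking peroxin at which both import receptors arrive, stood at 0.68, 0.03, 0.84, 0.81, 1.02 and 0.84 on arrays 1 to 6 (0.70 ± 0.35; limma, adjusted p = 0.0080). It was above 0 on 6 of 6 arrays, with 5 of them between 0.68 and 1.02 and array 2 close to 0. Its adjusted p was the lowest of the members, and the call held with each array left out (adjusted p up to 0.0307).

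Its docking partners were closer to 0. PEX13 (YLR191W), the other docking peroxin that binds the receptors, stood at 0.51, 0.32, 0.18, 0.51, -0.14 and 0.04 (0.24 ± 0.26; limma, adjusted p = 0.260), and PEX17 averaged 0.23 ± 0.25. PEX8, which links docking to the ubiquitin ligase complex from the inside, averaged 0.10 ± 0.41.

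The receptors themselves showed no common direction. PEX5 (YDR244W), the receptor for the C-terminal targeting signal, had the widest spread of the 46 members and is described for that reason, having been picked after its values were seen. It stood at -0.68, -1.10, -0.11, 1.12, 0.86 and 0.28 on arrays 1 to 6 (0.06 ± 0.87; limma, adjusted p = 0.902). Arrays 1, 2 and 3 were below 0 and arrays 4, 5 and 6 above it, so a mean near 0 hides shifts of more than 1 unit in each direction. PEX7, the receptor for the N-terminal signal, averaged 0.07 ± 0.27, and its co-receptors PEX18 and PEX21 averaged -0.05 ± 0.18 and -0.06 ± 0.33. PEX9, the oleate-induced relative of Pex5, averaged -0.03 ± 0.26.

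**Figure D3:**
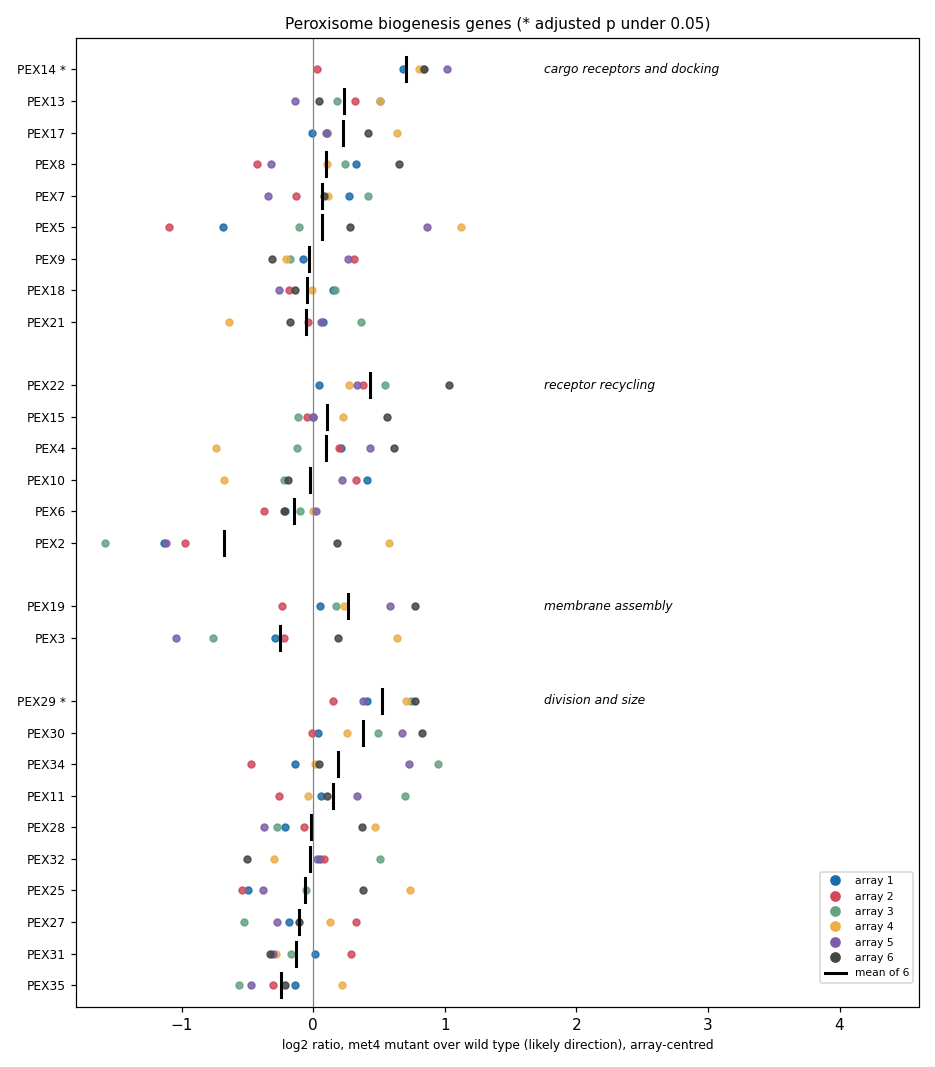
Log2 ratio (horizontal axis) of the 27 PEX genes on each of the 6 arrays (coloured points) with the mean (black bar), grouped by role and sorted by mean. PEX14 and PEX29, marked with a star, were past the adjusted p of 0.05, PEX5 ran from -1.10 to 1.12, and 4 of the 6 values of PEX2 lay between -1.58 and -0.97.

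None of the 6 receptor recycling genes passed (0 calls by limma; PEX2 and PEX22 had an unadjusted p under 0.05). PEX2 (YJL210W), a RING ubiquitin ligase subunit of the membrane, stood at -1.14, -0.97, -1.58, 0.58, -1.12 and 0.18 on arrays 1 to 6 (-0.68 ± 0.85; limma, adjusted p = 0.0883). It had the lowest mean of all members, with 4 arrays near or below -1 and arrays 4 and 6 above 0. It passed as lower without array 4 (-0.93, adjusted p = 0.0238) and with array weights (-0.85, adjusted p = 0.0168).

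PEX22 (YAL055W), the membrane anchor of the ubiquitin-conjugating enzyme Pex4, stood at 0.05, 0.38, 0.55, 0.27, 0.33 and 1.03 (0.43 ± 0.33; limma, adjusted p = 0.0604). It was above 0 on 6 of 6 arrays. Pex4's own gene averaged 0.10 ± 0.48. PEX10, another RING subunit, averaged -0.02 ± 0.42, PEX6, an ATPase that pulls the receptor out of the membrane, -0.15 ± 0.15, and PEX15, the anchor of that ATPase, 0.10 ± 0.25. PEX6 had the smallest SD of the 46 members, while PEX2 and PEX5 had the largest.

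Both membrane assembly genes, whose products bring membrane proteins to the organelle, failed to pass. PEX3 (YDR329C), the membrane receptor, stood at -0.29, -0.22, -0.76, 0.63, -1.04 and 0.19 on arrays 1 to 6 (-0.25 ± 0.61; limma, adjusted p = 0.433). PEX19 (YDL065C), the cytosolic carrier of membrane proteins, stood at 0.05, -0.24, 0.17, 0.23, 0.58 and 0.77 (0.26 ± 0.37; limma, adjusted p = 0.265). PEX3 was above 0 on arrays 4 and 6 alone, as were PEX2, PEX25 and PEX28, whereas PEX19 was below 0 on array 2 alone.

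Of 10 genes for the number and size of peroxisomes, 1 was higher. PEX29 (YDR479C), an endoplasmic reticulum membrane protein that limits peroxisome number, stood at 0.41, 0.15, 0.74, 0.70, 0.38 and 0.77 on arrays 1 to 6 (0.53 ± 0.25; limma, adjusted p = 0.0193). It was above 0 on 6 of 6 arrays, and its call was lost without array 3 or 6 (adjusted p = 0.0686 and 0.0666). PEX30 (YLR324W), of the same membrane group, stood at 0.04, -0.01, 0.49, 0.26, 0.67 and 0.83 (0.38 ± 0.34; limma, adjusted p = 0.0988).

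The remaining 8 had means between -0.25 and 0.19. PEX11, the main elongation factor of the membrane and a classic oleate-induced gene, averaged 0.15 ± 0.33, and its relatives PEX25 and PEX27 -0.06 ± 0.52 and -0.11 ± 0.30. PEX34, which acts with the Pex11 family, averaged 0.19 ± 0.54. PEX28, PEX31 and PEX32 averaged -0.02 ± 0.35, -0.13 ± 0.24 and -0.02 ± 0.35, and PEX35 -0.25 ± 0.28.

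Because a difference between a pair of genes within an array does not depend on centring, 12 pairs of partners or paralogs were compared by an exact two-sided sign-flip permutation test over the 6 arrays. The smallest p that 6 arrays allow is 0.0312, so at least 8 of the 12 pairs would have to reach it for any to pass after adjustment, and the absence of adjusted calls carries no information. The differences are given as values, and 2 pairs reached that smallest p (adjusted 0.188 for both). YAT1 exceeded YAT2 on 6 of 6 arrays, by 1.09 ± 0.70 on the log2 scale, from 0.44 on array 2 to 1.96 on array 5. PEX28 was below PEX29 on 6 of 6 arrays, with a difference of -0.54 ± 0.32 between -1.02 and -0.22. FAA1 exceeded FAA4 on 5 of 6 arrays, by 0.88 ± 0.68 (exact permutation p = 0.0625, adjusted 0.250).

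PEX30 minus PEX31 was 0.51 ± 0.56, PXA1 minus PXA2 -0.33 ± 0.36 and OAF1 minus PIP2 0.25 ± 0.38, with 1 or 2 arrays of the opposite sign in each. The mean differences of the other 6 pairs lay between -0.11 and 0.18, and in each of them 2 or 3 arrays went against the rest. POX1 minus POT1 ran from -0.73 to 1.07, ECI1 minus DCI1 from -0.63 to 0.62 and PEX18 minus PEX21 from -0.32 to 0.63. With such spreads 6 arrays do not show whether these partners differed. PEX5 minus PEX7 averaged -0.0053 with single arrays from -0.97 to 1.21. Paralogs such as FAA1 and FAA4 can share signal on an array, and as probe sequences were not used here, this was not tested.

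**Figure D4:**
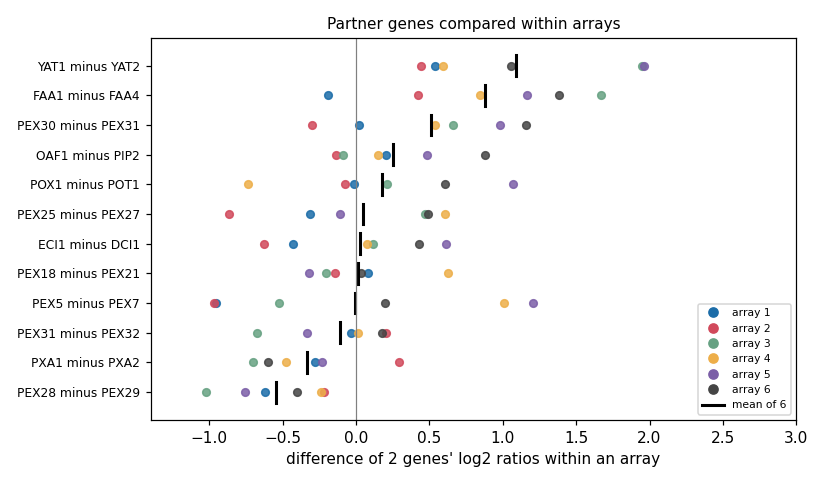
Difference of the log2 ratios of 2 partner genes within each array (coloured points) and its mean over 6 arrays (black bar) for 12 pairs. All 6 points lie above 0 for YAT1 minus YAT2 and below 0 for PEX28 minus PEX29, and every other pair has points on both sides.

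Other genes of the peroxisome and of connected pathways were counted from lists by function. Over all genes 9.41% were higher and 5.69% lower. Of 17 further peroxisomal proteins, 2 were higher and 15 did not pass: GPD1, the glycerol 3-phosphate dehydrogenase (1.55 ± 0.52; limma, adjusted p = 0.000265), and PNC1, the nicotinamidase (0.96 ± 0.84; limma, adjusted p = 0.0214, lost without array 4, 5 or 6 at up to 0.0701). Both proteins also work in the cytosol and are known stress-induced genes. The list median was 0.01. CTA1, the peroxisomal catalase, averaged -0.32 ± 0.57, and CAT2, the carnitine acetyltransferase of peroxisomes and mitochondria, 0.15 ± 0.22.

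None of the 5 fission genes shared with mitochondria passed (0 calls by limma, 1 at an unadjusted p under 0.05). The nearest was DNM1, the dynamin of both organelles (0.47 ± 0.51; limma, adjusted p = 0.0937), which passed without array 2 (0.63, adjusted p = 0.0175). With any other single array left out DNM1 did not pass (limma, adjusted p 0.0956 to 0.258). None of 12 genes for fatty acid synthesis and desaturation passed (0 calls by limma, 1 at an unadjusted p under 0.05). ACC1, acetyl-CoA carboxylase, had the smallest adjusted p there (-0.32 ± 0.29; limma, adjusted p = 0.135), and FAS1, FAS2 and OLE1 averaged -0.08, 0.03 and -0.19. Of 11 genes for lipid storage and release, ARE2, a sterol acyltransferase, was higher (0.71 ± 0.69; limma, adjusted p = 0.0417, lost without array 2, 4, 5 or 6 at up to 0.120, with array weights at 0.0790 and as deposited at 0.117).

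Of 13 genes of glucose repression, HXK2, the hexokinase that takes part in it, was lower (-0.70 ± 0.37; limma, adjusted p = 0.0090), and SIP2, a subunit of the Snf1 kinase, was higher (0.64 ± 0.60; limma, adjusted p = 0.0429, lost without array 1, 3, 5 or 6 at up to 0.139). Neither was called as deposited. Of 16 other targets of Adr1 or Cat8, ALD4, a mitochondrial aldehyde dehydrogenase (1.54 ± 1.08), and GUT2, the mitochondrial glycerol 3-phosphate dehydrogenase (1.44 ± 0.48), were higher, ADH2 was lower (-2.03 ± 0.59) and 13 did not pass. The glyoxylate cycle genes ICL1 and MLS1 averaged -0.31 ± 0.28 and -0.24 ± 0.23. The list median was -0.08, with 7 means above 0 and 9 below.

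Targets of the stress factors Msn2 and Msn4 were counted too, because some genes of carbon and lipid metabolism are among them. Of 20 such genes 16 were higher and 0 were lower, against 9.41% and 5.69% of all genes. The list was chosen with earlier results of these data known. Its count of higher genes was 13 to 17 over the alternatives. The median was 1.06, with list medians of 0.78, 0.28, 1.40, 1.13, 1.47 and 1.08 on arrays 1 to 6. The highest 4 by mean were HSP12 (2.44 ± 1.81), which encodes a small membrane-stabilising protein, the aldehyde dehydrogenase gene ALD3 (2.41 ± 0.47), RTN2 (1.84 ± 0.72) and TFS1 (1.77 ± 1.21), a carboxypeptidase Y inhibitor gene. All 4 passed with each array left out in turn (limma, adjusted p up to 0.0296). The medians of the 46 members on the same arrays were 0.05, -0.05, 0.14, 0.19, 0.08 and 0.11. Both sets of medians were lowest on array 2. The difference between the lists was not tested.

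**Figure D5:**
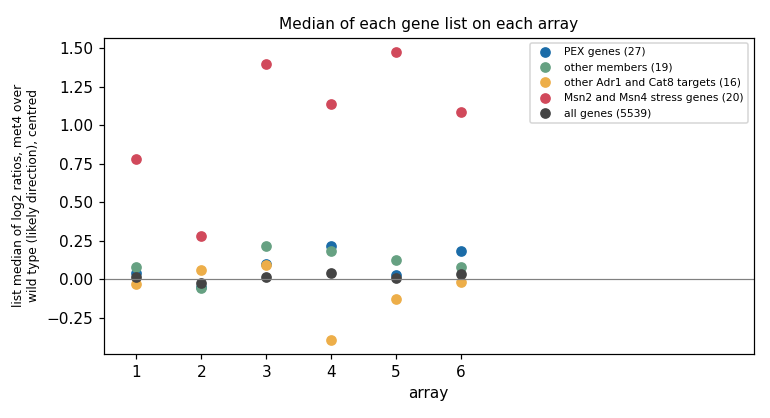
Median log2 ratio of 5 gene lists (colours, gene numbers in the legend) on each of the 6 arrays. The PEX genes and the other members stayed within 0.22 of 0 on every array, and the Msn2 and Msn4 stress genes had medians from 0.28 on array 2 to 1.47 on array 5.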

How the data were processed

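Per the labels, each of the 6 samples is 1 two-colour array. The deposited table holds a log ratio between the 2 channels for each of 13056 spots, read as log2 because the values span -3.57 to 5.32. How the authors scanned, background-corrected or normalized the arrays is not given in the sources used. Were the base e, every printed value would have to be multiplied by 1.44, with unchanged tests. Columns were matched to samples by accession. The number of arrays sets the precision. No scanner intensities were used here, so dim spots could not be marked.

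Exact zeros (134 spot values, 0 of them in members) were set to missing, each array was centred on the median of its spots, and spots were averaged per platform gene symbol (11138 named spots). Genes needed a value on at least 4 arrays. The mean of each gene was compared with 0 by limma 3.58.1 under R 4.3.3 (an intercept fitted by lmFit, then eBayes; adjusted p of 0.05), after the calculation was tested on simulated data. Pairs, and the called members in addition to limma, were tested by exact sign-flip permutation over 64 sign patterns. All members are accounted for. Values on every array were given for called members, the 3 regulators, POX1, FOX2, POT1 and the 2 largest means by size per role. In other lists up to 4 called genes were named, or the 1 with the smallest adjusted p. PEX5, CTA1, CAT2, FAS1, FAS2, OLE1, ICL1 and MLS1 were named outside this rule, after their values were seen. Members and lists were chosen with earlier results of these data known. Alternatives covered centring, scaling, quantile normalization, missing values, zeros, spots per gene, 48 runs of consecutive spots, robust fits, array weights and leaving out each array. Figures were drawn with matplotlib 3.10.9. No genome build was named, so no coordinates are given.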

Additional observations from a re-analysis of the deposited data

Results flagged for a closer look

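In 4 of the 46 members a single array lay far from the other 5, by Dixon's criterion for 6 values (a gap of more than 0.625 of the range). About 1 in 20 genes would be marked if the values were independent and normal. The share marked over all genes was not counted, so the 4 flags are not a result about the members. Array 2 was the distant one for 3 of the 4 flags: FOX2 stood at -0.55 there (gap 0.686 of the range), PXA2 at -0.39 (0.699) and PEX14 at 0.0317 (0.657). Array 4 was the distant one for POX1, at -1.21 (0.668). Array 2 also had the lowest mean correlation with the other arrays over all genes, 0.291. Without array 2 PEX14 averaged 0.84 and remained past the threshold, while FOX2 and PXA2 averaged 0.06 and 0.16 and did not pass. Without array 4 POX1 averaged 0.17 and did not pass.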

How the results depend on the processing

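The count of higher members was 6. It was 0 as deposited and 2 to 8 with an array left out, and 4 to 6 under the other 8 alternatives. The count of lower members was 0. It was 1 with scaled arrays, 1 with quantile normalization, 2 with array weights and 0 to 2 with an array left out. The count of all called genes, 836, was 246 as deposited (187 above 0 and 59 below, against 521 and 315 after centring) and 456 to 965 with an array left out. MET4 was at -0.47 as deposited and did not pass (limma, adjusted p = 0.600). It passed under the other 14 alternatives. Among the alternatives, keeping exact zeros and requiring a value on all 6 arrays hardly changed the data. They gave 835 and 836 called genes, so they say little about stability. No called member changed sign in any alternative. Among all members 12 means changed sign as deposited, and 14 did so when runs of consecutive spots were centred separately. The adjusted test of the 12 pairs could hardly pass with 6 arrays and cannot with 5, so its 0 calls say nothing about stability. No paired analysis was possible because the samples form 1 group in which each array already holds mutant and wild type. Signal over background could not be judged, since the values are ratios.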
